A study of Mus musculus with 8 samples.

Results

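The genes described here encode the collagens, the laminins, the integrins, fibronectin (Fn1) and Sparc, which together make and hold on to much of the extracellular matrix. They were taken from the deposited table by symbol alone, with no use of their values: 81 of the 38610 symbols in the table, of which 44 were collagen chains, 11 laminin chains, 24 integrin chains and 2 the glycoproteins Fn1 and Sparc. The data were RNA-seq libraries of CJ9, a mouse embryonic stem cell line of strain 129S4/SvJae, made after differentiation was started by withdrawal of leukemia inhibitory factor (LIF). There were 3 libraries of Evx1as KO cells, in which a long noncoding RNA transcribed antisense to the homeobox gene Evx1 was knocked out by CRISPR, 3 of cells labelled EVX1 KO, and 2 of wild-type (WT) cells. The groups share the line, the strain and the LIF withdrawal, and the labels do not say how many clones were used or whether replicates were separate cultures, so p-values measure only the spread between these samples. All titles and time labels say day 4, but the culture and harvest texts of EVX1 KO replicates 2 and 3 say day 6, so the EVX1 KO calls of these genes are also given with these 2 libraries left out where that changes them.

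Collagens are triple helices of 3 alpha chains. Fibrillar collagens build the fibres of the stroma, and type IV collagen builds the sheet of the basement membrane, the thin layer under epithelia. Laminins are trimers of an alpha, a beta and a gamma chain, and form the other network of the basement membrane; their coiled-coil arms bring the chains together before secretion, so a trimer needs all 3 chains. Integrins are receptors made of an alpha and a beta chain that bind these ligands outside the cell and the actin cytoskeleton inside it: the chains Itga5 and Itgav with Itgb1 bind fibronectin, Itga3 and Itga6 bind laminins, and Itga1, Itga2, Itga10 and Itga11 bind collagens. In the mouse embryo, fibronectin and its receptor serve the migrating mesoderm, and laminin and type IV collagen form the basement membrane that the epiblast rests on.

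Levels are in FPKM, which is scaled to the length of the transcript and the size of the library, so levels of different genes can be set side by side. Read counts are not in the table; relative depth, read from the smallest steps of low FPKM values, ran from 0.863 to 0.976 of WT replicate 1 in Evx1as KO, from 0.989 to 1.05 in EVX1 KO, and was 1.19 in WT replicate 2. Evx1as (5730457N03Rik in the table) had 0.0549, 0.104 and 0.0485 FPKM in Evx1as KO, 5.005, 8.81 and 7.39 FPKM in EVX1 KO, and 5.36 and 6.75 FPKM in WT. Evx1 had 2.45, 3.84 and 0.542 FPKM in Evx1as KO, 26.3, 20.8 and 31.7 FPKM in EVX1 KO, and 22.0 and 31.2 FPKM in WT. Both transcripts were thus low in Evx1as KO, and the Evx1 transcript level does not check the EVX1 KO label. The genes overlap, and no source used here names the strand setting of the counting, so reads of one cannot be told from reads of the other.

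Some libraries stand apart by chromosome. The median deviation of chromosome 8 genes from their means was -0.38, -0.30 and 0.08 on the log2 scale in EVX1 KO replicates 1 to 3, 0.15 to 0.16 in Evx1as KO, and 0.11 and 0.01 in WT. For chromosome 1 it was 0.12 to 0.14 in EVX1 KO, -0.10 to -0.09 in Evx1as KO, and 0.02 and -0.10 in WT, and for chromosome 14 it was -0.36 and -0.34 in Evx1as KO replicates 2 and 3, against 0.13 in replicate 1. Of the members tested below, Col4a1, Col4a2 and Itgb1 lie on chromosome 8, and Fn1, Lamc1, Lamb3, Col3a1 and Col5a2 are among those on chromosome 1. Fits were therefore also made after the median of the chromosome was subtracted in each library. In Evx1as KO against WT this gave log2 fold changes of -0.91 for Lamb3, -0.07 for Lamc1, -0.78 for Col3a1 and -0.03 for Col5a2, and of -1.51 for Col4a1 and -1.59 for Col4a2, with the calls as without it.

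Col4a1 and Col4a2, which fell together in Evx1as KO, lie on opposite strands, and the bases from one start site to the other are shown because the transcripts of both genes begin there and overlap. In RefSeq on GRCm38.p6 the Col4a2 start is at 11312805 on the plus strand of chromosome 8 and the Col4a1 start at 11312826 on the minus strand, 21 bases apart. The plus strand from one start to the other, chr8:11312805-11312826, reads as follows, with capitals for a GC box, the letters GGGCGG on either strand.
Col4a2 to Col4a1: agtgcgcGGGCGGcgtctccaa
The 250 bases before the start are shown for the integrin chains of the fibronectin receptors, Itga5 (chr15:103366792-103367041, minus strand) and Itgav (chr2:83724147-83724396, plus strand), and for Col5a1 (chr2:27886175-27886424, plus strand), the most abundant fibrillar collagen here, since all were lower in Evx1as KO. Each is written 5′ to 3′ on the strand of the gene, from RefSeq on GRCm38.p6, with GC boxes in capitals. None holds an exon base in the GENCODE annotation of GRCm38; the Col5a1 window lies within the annotated gene 2810430I11Rik, between its exons.
Itga5: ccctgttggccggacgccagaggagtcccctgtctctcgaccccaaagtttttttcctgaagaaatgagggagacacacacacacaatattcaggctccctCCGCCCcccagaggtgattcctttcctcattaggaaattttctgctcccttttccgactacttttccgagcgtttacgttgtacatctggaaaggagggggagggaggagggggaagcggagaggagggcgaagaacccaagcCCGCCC
Itgav: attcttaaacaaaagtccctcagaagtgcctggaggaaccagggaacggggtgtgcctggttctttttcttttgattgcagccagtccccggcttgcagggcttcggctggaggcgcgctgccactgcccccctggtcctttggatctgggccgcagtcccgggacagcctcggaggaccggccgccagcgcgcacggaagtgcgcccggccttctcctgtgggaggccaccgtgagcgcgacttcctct
Col5a1: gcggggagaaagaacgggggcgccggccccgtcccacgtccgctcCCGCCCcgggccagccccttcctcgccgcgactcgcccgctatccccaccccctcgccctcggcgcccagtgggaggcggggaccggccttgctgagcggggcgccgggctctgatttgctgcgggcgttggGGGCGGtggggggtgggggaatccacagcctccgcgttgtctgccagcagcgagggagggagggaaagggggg
Itga5 and Col5a1 held 2 GC boxes each, and Itgav held none. Of the 81 members 58 matched a RefSeq promoter, with 64 windows. A GC box stood in 48.4% of these windows and in 32.7% of all 32851 windows of the same length. The other motifs searched on both strands were CCAAT in 26.6% of member windows and 33.8% of all, TATAAA in 7.81% and 12.4%, TGANTCA, the AP-1 letters, in 3.12% and 6.75%, and TAATTA, the core letters of homeobox factors such as EVX1, in 3.12% and 4.84%. The median GC content was 58.6% in member windows and 52.4% in all windows. A match describes letters only.

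A small number of the genes carried most of the signal. Of the 81 members 16 had at least 10 FPKM in all 8 libraries, 40 stayed below 1 FPKM in all of them, and Col28a1 was listed at 0 throughout. Fn1 and Sparc were the highest, followed by Col18a1, Itga3, Itgb1, Lama5, Lamc1 and Itga5. The top 5 collagens by mean level were Col18a1, Col4a1, Col5a1, Col4a2 and Col2a1, and the top 5 integrins Itga3, Itgb1, Itga5, Itgb5 and Itga6, and the highest laminins included Lama5, Lamc1, Lamb1 and Lamb2. The 81 genes together took 0.210% to 0.246% of summed FPKM in Evx1as KO libraries, 0.376% to 0.389% in EVX1 KO libraries, and 0.427% and 0.398% in WT libraries. The Evx1as KO libraries were the lowest 3 of the 8.

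**Figure D1:**
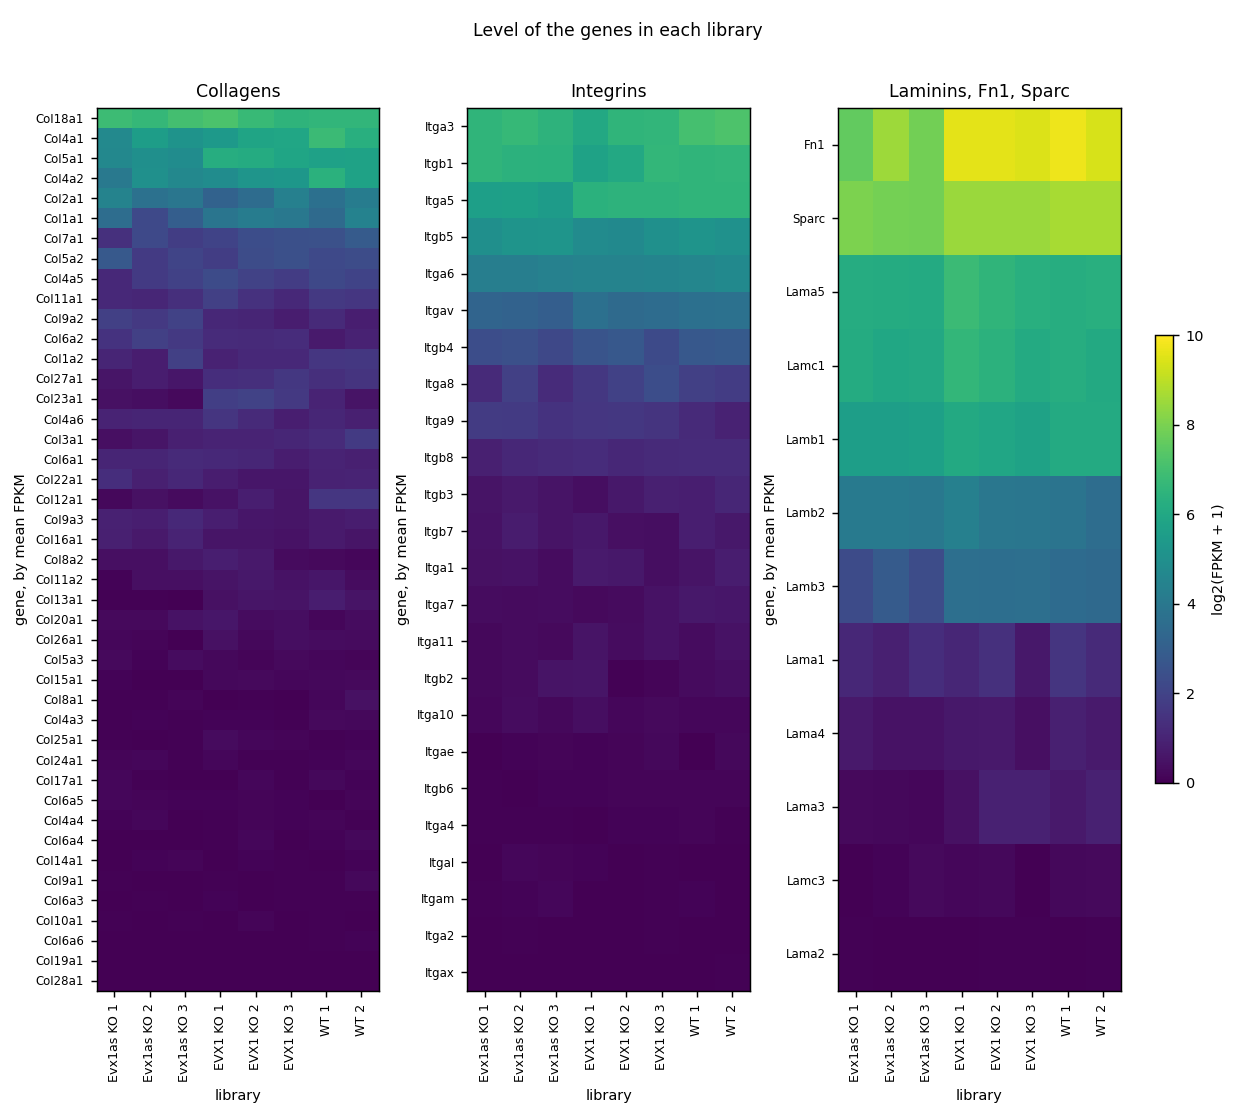
Level of the genes (rows, ordered by mean FPKM within each panel) in each of the 8 libraries (columns) as log2(FPKM + 1), by colour. Fn1 and Sparc are the brightest rows, the 3 Evx1as KO columns are darker than the rest for Fn1 and Lamb3, and most collagens and integrins are near 0 in every library.

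Tests were made on the 39 members that reached 1 FPKM in at least 2 libraries, in 1 fit over all 13188 such genes (limma on log2(FPKM + 1), Benjamini-Hochberg adjusted p below 0.05, two-sided). Fold changes on this scale understate those of low genes. In Evx1as KO against WT 16 of the 39 fell, where 11.4% of all genes tested were called lower, and 3 rose, where 13.0% of all were called higher. The 16 include Col3a1, Col12a1 and Col27a1, which stayed below 1 FPKM in Evx1as KO and entered the test through other libraries. Col6a2, among the 3, stayed below 1 FPKM in WT and entered through the knockout libraries. The median log2 fold change was -0.42 over the 39 members and 0.02 over all genes tested. The members that fell included fibronectin and its receptor chains, type IV and fibrillar collagens, and beta chains of laminin, whereas the main laminin trimer chains Lama5 and Lamc1 and the common beta integrin Itgb1 were not called. In EVX1 KO against WT 1 member rose (Col23a1) and 1 fell (Col12a1), where 0.69% and 0.554% of all genes were called higher and lower. Col23a1 entered the test through the EVX1 KO libraries alone and Col12a1 through the WT libraries alone, so nothing is read from these counts. In bulk RNA, fewer cells of a type and less RNA per cell cannot be told apart.

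**Figure D2:**
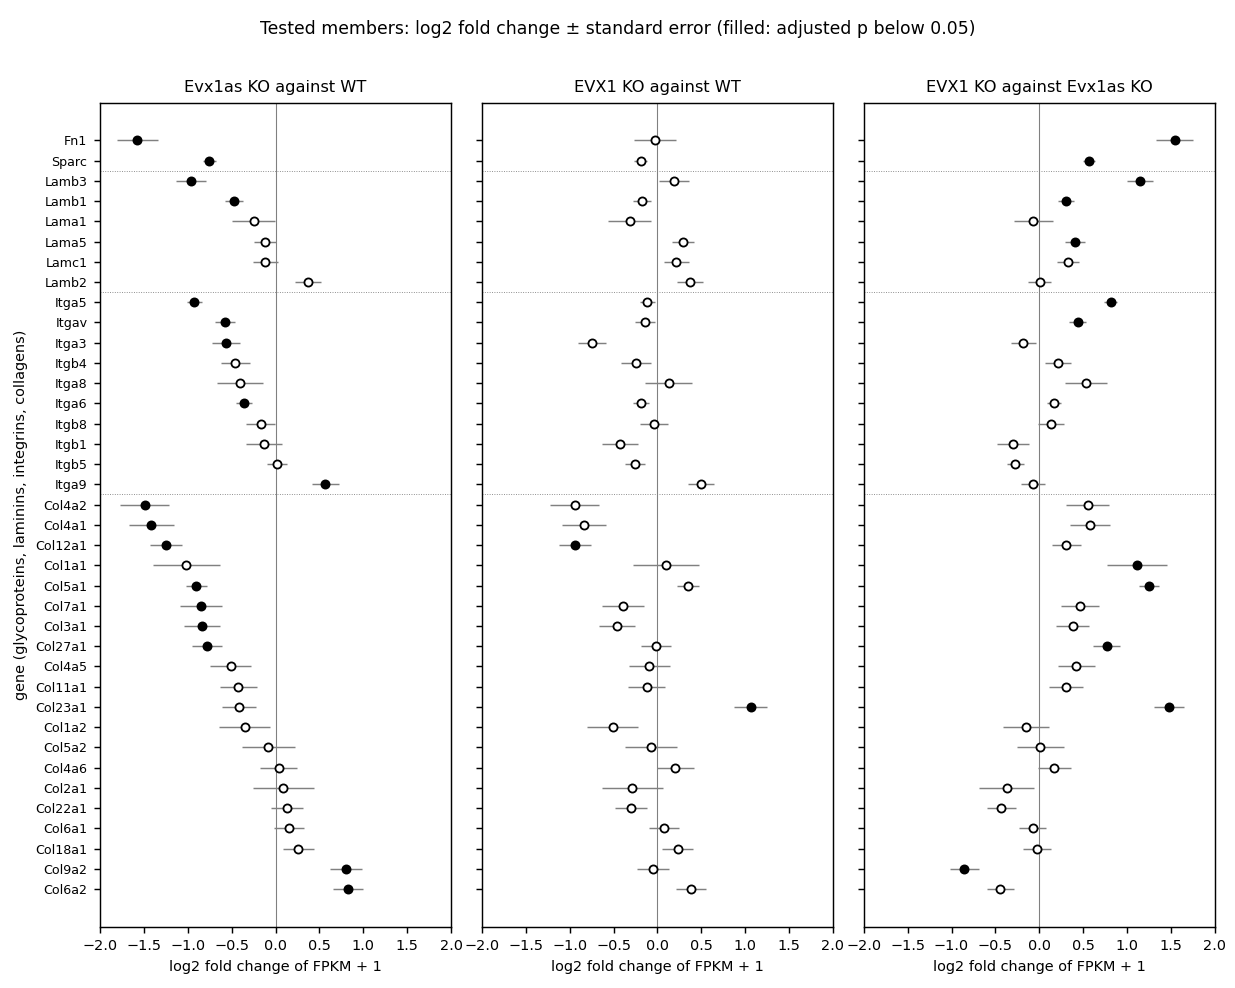
Log2 fold change of FPKM + 1 with its standard error (horizontal bars) for tested members (rows), in Evx1as KO against WT (left), EVX1 KO against WT (middle) and EVX1 KO against Evx1as KO (right); filled points have an adjusted p below 0.05. In the left panel 3 filled points lie above 0 and the others below, in the middle 1 lies on each side, and in the right 1 lies below and the others above.

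Fibronectin, the most abundant of the ligands measured, stood at 0.345 of its mean WT level in Evx1as KO. Fn1 had 193, 373 and 231 FPKM in Evx1as KO, 768, 770 and 706 FPKM in EVX1 KO, and 869 and 670 FPKM in WT. Every Evx1as KO library lay below every other library, and the EVX1 KO and WT libraries overlapped. Fn1 averaged 266 ± 94.5 FPKM in Evx1as KO (SD, n = 3) and 769 ± 140 FPKM in WT (SD, n = 2), a log2 fold change of -1.57 ± 0.24 (SE; adjusted p = 0.00305 by limma). With the chromosome 1 median subtracted the fold change was -1.52. Sparc, a calcium-binding matrix protein that binds collagen, had 261, 237 and 234 FPKM in Evx1as KO, 363, 358 and 360 FPKM in EVX1 KO, and 411 and 414 FPKM in WT. The groups did not overlap, with Evx1as KO lowest and WT highest. Its log2 fold change in Evx1as KO against WT was -0.75 ± 0.08 (adjusted p = 0.000928 by limma).

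Of the alpha chains of fibronectin receptors, Itga5 and Itgav fell in Evx1as KO, Itga8 was not called and Itga4 was too low to be tested, and the beta chains Itgb1 and Itgb5 did not pass the test. Itga5, the alpha chain of the classical fibronectin receptor, had 49.0, 50.4 and 44.5 FPKM in Evx1as KO, 82.2, 86.3 and 86.5 FPKM in EVX1 KO, and 92.0 FPKM in both WT libraries. The Evx1as KO libraries stood below all others with no overlap, and its log2 fold change against WT was -0.93 ± 0.08 (adjusted p = 0.000641 by limma). Itgav, the alpha chain of several receptors for the RGD peptide, had 8.43, 7.75 and 7.02 FPKM in Evx1as KO, 11.9, 10.1 and 10.5 FPKM in EVX1 KO, and 11.9 and 12.1 FPKM in WT. Evx1as KO was again the lowest group in every library, with a log2 fold change of -0.58 ± 0.11 (adjusted p = 0.00798 by limma). Itga8, the chain that with Itgb1 binds nephronectin, was low, at 1.29 to 2.76 FPKM in Evx1as KO, 2.101 to 4.16 FPKM in EVX1 KO, and 2.76 and 2.44 FPKM in WT, and was not called (-0.41, adjusted p = 0.295 by limma). Itga4, the fibronectin receptor chain of blood and neural crest cells, was near 0, and Vtn, the vitronectin ligand of Itgav with Itgb5, was listed at 0 in 7 of the 8 libraries.

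Of the beta chains, Itgb1 and Itgb5 made up nearly all the FPKM. Itgb1, the partner of most alpha chains, had 92.5, 84.0 and 82.8 FPKM in Evx1as KO, 53.8, 64.6 and 98.3 FPKM in EVX1 KO, and 93.4 and 95.9 FPKM in WT. Evx1as KO lay just below WT, and 2 of the 3 EVX1 KO libraries were the lowest of all while the third was the highest. Its log2 fold change in Evx1as KO against WT was -0.13 ± 0.21 (adjusted p = 0.676 by limma). Itgb5 had 30.8, 35.4 and 36.3 FPKM in Evx1as KO, 27.0, 26.1 and 31.3 FPKM in EVX1 KO, and 35.1 and 32.4 FPKM in WT, with a log2 fold change of 0.01 ± 0.11 in Evx1as KO against WT (adjusted p = 0.936 by limma). The 3 Evx1as KO libraries overlapped the WT range. Itgb4, the beta partner of Itga6 in hemidesmosomes, had 3.48 to 4.39 FPKM in Evx1as KO, 3.69 to 5.75 FPKM in EVX1 KO, and 5.67 and 6.06 FPKM in WT (log2 fold change in Evx1as KO against WT -0.46, adjusted p = 0.0756 by limma). It was called lower in 3 of the alternative fits, those without any EVX1 KO library, without replicate 3 and without replicates 2 and 3 of EVX1 KO. Itgb8 was near 1 FPKM in all groups and was not called, and Itgb3, the platelet and endothelial chain, reached 1 FPKM in 1 WT library alone.

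**Figure D3:**
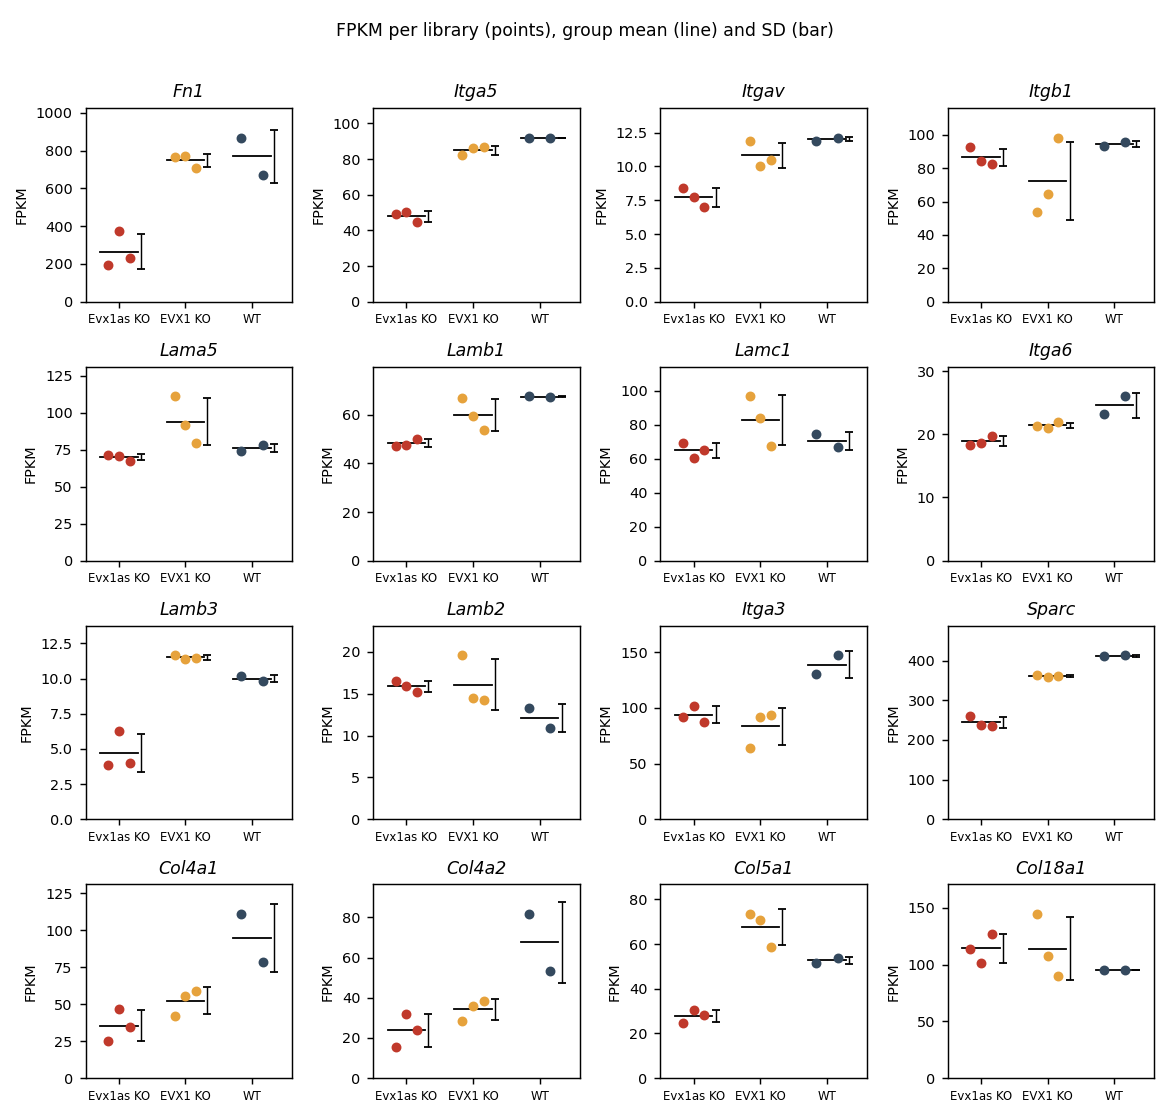
FPKM in each library (points) with the group mean (line) and SD (bar) for 16 members, with Evx1as KO (n = 3), EVX1 KO (n = 3) and WT (n = 2) from left to right; each vertical axis starts at 0. The Evx1as KO points lie below all others for Fn1, Itga5, Itgav, Lama5, Lamb1, Itga6, Lamb3, Sparc and Col5a1, and the EVX1 KO points of Itgb1 spread from 53.8 to 98.3 FPKM.

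Among the laminins, the alpha chain Lama5 and the gamma chain Lamc1 were not called in Evx1as KO against WT, and the beta chains Lamb1 and Lamb3 fell. Lama5 supplied 95.7% to 98.2% of alpha-chain FPKM in every library. It had 71.7, 70.4 and 67.5 FPKM in Evx1as KO, 111, 91.5 and 79.2 FPKM in EVX1 KO, and 74.0 and 77.9 FPKM in WT. Evx1as KO lay just below WT without overlap, but the log2 fold change of -0.12 ± 0.13 was not called (adjusted p = 0.528 by limma). Lamc1, the common gamma chain, had 69.2, 60.5 and 65.3 FPKM in Evx1as KO, 96.8, 84.1 and 67.5 FPKM in EVX1 KO, and 74.4 and 67.0 FPKM in WT, and was not called either (-0.12 ± 0.14, adjusted p = 0.575 by limma). Its Evx1as KO and WT values overlapped. Lamb1, their beta partner, had 47.1, 47.8 and 50.1 FPKM in Evx1as KO, 67.0, 59.5 and 53.6 FPKM in EVX1 KO, and 67.7 and 67.5 FPKM in WT. No Evx1as KO library overlapped the others, and the log2 fold change was -0.48 ± 0.10 (adjusted p = 0.0110 by limma), a call lost without either WT library (highest adjusted p 0.0614).

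Lamb3, a laminin beta chain of hemidesmosomes and of migrating epithelial cells, fell in Evx1as KO. Lamb3 had 3.88, 6.30 and 4.01 FPKM in Evx1as KO, 11.7, 11.4 and 11.5 FPKM in EVX1 KO, and 10.2 and 9.81 FPKM in WT, a log2 fold change of -0.96 ± 0.17 against WT (adjusted p = 0.00523 by limma). Again no Evx1as KO library reached the other groups. Lama3, an alpha chain that assembles with Lamb3, was below 1 FPKM everywhere and was not tested: it had 0.192, 0.167 and 0.117 FPKM in Evx1as KO, 0.365, 0.876 and 0.902 FPKM in EVX1 KO, and 0.626 and 0.884 FPKM in WT, so the Evx1as KO values were the lowest 3. Lama3 was also far below Lamb3 per length in all 8 libraries.

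The make-up of the laminin beta chains shifted accordingly. Lamb3 made up 5.75% to 8.99% of beta-chain FPKM in Evx1as KO, 11.9% to 14.5% in EVX1 KO, and 11.1% in both WT libraries. Lamb2, the beta chain of muscle and kidney basement membranes, had 16.5, 15.9 and 15.2 FPKM in Evx1as KO, 19.6, 14.5 and 14.2 FPKM in EVX1 KO, and 13.3 and 10.97 FPKM in WT, and was not called (0.37, adjusted p = 0.103 by limma) except without EVX1 KO replicate 1 (adjusted p 0.0380). The ratio of Lamb1 to Lamb2 was 2.85, 3.01 and 3.29 in Evx1as KO, 3.41, 4.11 and 3.77 in EVX1 KO, and 5.08 and 6.15 in WT. The 3 groups did not overlap, but the exact two-sided permutation p was 0.2 for Evx1as KO against WT, the smallest that 3 against 2 libraries allow, and 0.45 after adjustment over the 18 tests of 6 such ratios. Lama1, the alpha chain of the earliest embryonic laminin, had 1.17, 0.835 and 1.48 FPKM in Evx1as KO, 1.11, 1.60 and 0.571 FPKM in EVX1 KO, and 1.89 and 1.25 FPKM in WT, with overlap between the groups and no call (-0.25, adjusted p = 0.484 by limma). Lama2, Lama4 and Lamc3 stayed below 1 FPKM.

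Of the laminin-binding alpha chains, Itga3 and Itga6 fell in Evx1as KO, and Itga7 was below the filter. Itga3 had 92.2, 102 and 87.0 FPKM in Evx1as KO, 64.3, 92.1 and 93.9 FPKM in EVX1 KO, and 130 and 147 FPKM in WT. Both knockouts lay below both WT libraries. The log2 fold change in Evx1as KO against WT was -0.56 ± 0.16 (adjusted p = 0.0341 by limma), a call lost without Evx1as KO replicate 1 or 3, without either WT library and with no filter on low values (highest adjusted p 0.180). Itga6, the laminin receptor chain of stem cells and epithelia, had 18.3, 18.6 and 19.8 FPKM in Evx1as KO, 21.2, 21.0 and 21.9 FPKM in EVX1 KO, and 23.2 and 26.0 FPKM in WT. The groups did not overlap and stood in this order, with a log2 fold change of -0.36 ± 0.09 in Evx1as KO against WT (adjusted p = 0.0202 by limma), lost without Evx1as KO replicate 1 or WT replicate 2 (highest adjusted p 0.127). Itga5 took 27.2% to 28.4% of alpha-integrin FPKM in Evx1as KO, 39.3% to 44.3% in EVX1 KO, and 35.0% and 32.5% in WT. The ratio of Itga5 to Itga6 was 2.68, 2.71 and 2.25 in Evx1as KO, 3.87, 4.10 and 3.96 in EVX1 KO, and 3.97 and 3.54 in WT (exact permutation p = 0.2 for Evx1as KO against WT, adjusted 0.45). Itga7, the laminin receptor chain of muscle, had 0.274, 0.222 and 0.242 FPKM in Evx1as KO, 0.20 to 0.388 FPKM in EVX1 KO, and 0.574 and 0.541 FPKM in WT.

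**Figure D4:**
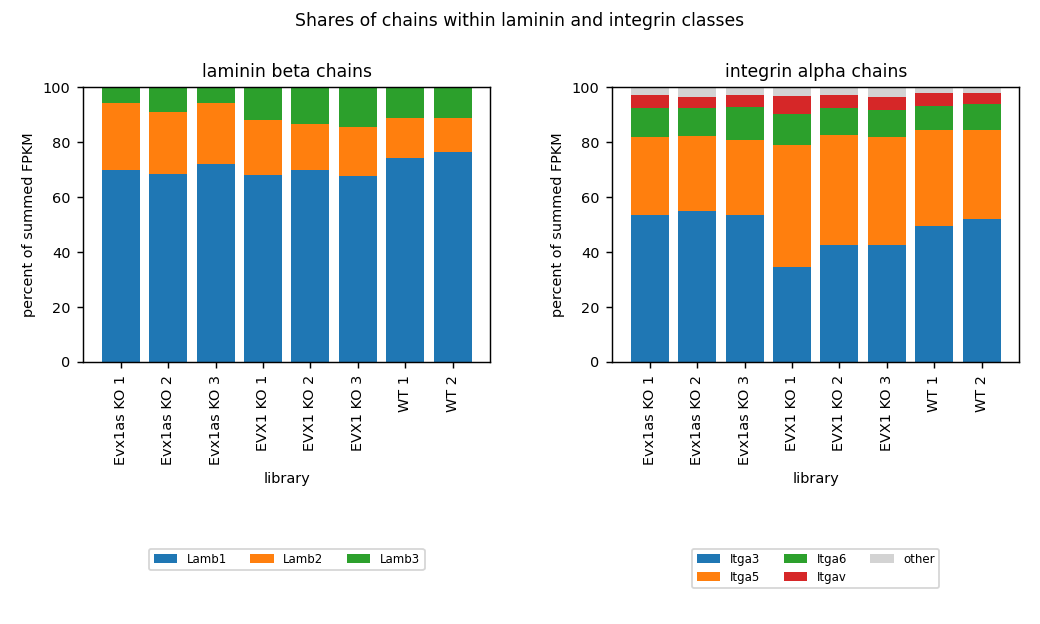
Percent of summed FPKM (vertical axes) held by each laminin beta and integrin alpha chain in each library (bars, Evx1as KO, EVX1 KO and WT from left to right). Lamb3 takes at most 8.99% of beta-chain FPKM in Evx1as KO and at least 11.1% in the other libraries, and Itga5 at most 28.4% of alpha-integrin FPKM in Evx1as KO and at least 32.5% elsewhere.

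The ubiquitous type IV collagen chains fell together in Evx1as KO. Col4a1 had 25.2, 46.4 and 34.6 FPKM in Evx1as KO, 41.9, 55.8 and 59.2 FPKM in EVX1 KO, and 111 and 78.3 FPKM in WT. Col4a2, with which it forms the common type IV trimer, had 15.5, 31.8 and 24.2 FPKM in Evx1as KO, 28.4, 35.8 and 38.5 FPKM in EVX1 KO, and 81.8 and 53.4 FPKM in WT. WT was above both knockouts for both genes, and the knockouts overlapped each other. The log2 fold changes in Evx1as KO against WT were -1.41 ± 0.25 for Col4a1 (adjusted p = 0.00569 by limma) and -1.49 ± 0.28 for Col4a2 (adjusted p = 0.00689 by limma). Both calls were lost without WT replicate 1, the higher WT library, at adjusted p 0.0533 and 0.0625, where the fold changes were -1.16 and -1.19. The ratio of Col4a1 to Col4a2, whose start sites are shown above, stayed between 1.36 and 1.63 in all 8 libraries. Col4a5 and Col4a6, the X-linked pair of smooth muscle and kidney basement membranes, were not called in any comparison, and Col4a3 and Col4a4 were below 1 FPKM.

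Col18a1, the basement membrane collagen whose C-terminal piece is endostatin, was the highest collagen and did not fall. It had 114, 102 and 127 FPKM in Evx1as KO, 145, 107 and 90.2 FPKM in EVX1 KO, and 94.9 and 95.0 FPKM in WT, a log2 fold change of 0.26 in Evx1as KO against WT (adjusted p = 0.315 by limma). Evx1as KO was above WT without overlap, and EVX1 KO spanned WT. It thereby supplied 40.8% to 48.4% of collagen FPKM in Evx1as KO, 29.3% to 42.6% in EVX1 KO, and 24.2% and 27.1% in WT. Col7a1, the anchoring fibril collagen that binds the laminin that holds Lamb3, had 1.65, 3.62 and 2.54 FPKM in Evx1as KO, 3.01, 4.21 and 4.40 FPKM in EVX1 KO, and 4.53 and 6.25 FPKM in WT. Its log2 fold change of -0.85 in Evx1as KO against WT (adjusted p = 0.0338 by limma) was lost with no filter and without either WT library, EVX1 KO replicate 2, or replicate 1 or 3 of Evx1as KO (highest adjusted p 0.202).

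Among the fibrillar collagens, 3 of the 8 tested fell in Evx1as KO and none rose, beside 11.4% of all genes called lower and 13.0% called higher. Col5a1, which sets the diameter of collagen I fibrils, had 24.8, 30.4 and 28.3 FPKM in Evx1as KO, 73.5, 71.0 and 58.5 FPKM in EVX1 KO, and 51.7 and 53.9 FPKM in WT. The groups were separate, with EVX1 KO highest and Evx1as KO lowest, and the log2 fold change in Evx1as KO against WT was -0.90 ± 0.12 (adjusted p = 0.00225 by limma). Its partner chain Col5a2 had 5.93, 2.25 and 3.17 FPKM in Evx1as KO, 2.54, 4.01 and 4.41 FPKM in EVX1 KO, and 3.65 and 3.98 FPKM in WT, with overlap and a log2 fold change of -0.08 (adjusted p = 0.865 by limma). Col3a1, of vessel walls and soft tissues, had 0.335, 0.500 and 0.862 FPKM in Evx1as KO, 0.998, 0.973 and 1.08 FPKM in EVX1 KO, and 1.37 and 2.24 FPKM in WT (log2 fold change -0.84, adjusted p = 0.0191 by limma), a call lost without Evx1as KO replicate 1 or WT replicate 2 (highest adjusted p 0.143). It entered the test through the WT libraries and EVX1 KO replicate 3. Col27a1 had 0.463, 0.723 and 0.534 FPKM in Evx1as KO, 1.46, 1.53 and 2.06 FPKM in EVX1 KO, and 1.57 and 1.84 FPKM in WT (log2 fold change -0.78, adjusted p = 0.0121 by limma), lost without either WT library (highest adjusted p 0.0796). Col27a1 entered the test through the WT and EVX1 KO libraries alone. In both genes no Evx1as KO library overlapped WT.

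The chains of type I collagen, the main bone and skin collagen, did not pass the test. Col1a1 had 10.9, 3.58 and 6.99 FPKM in Evx1as KO, 13.7, 17.5 and 15.2 FPKM in EVX1 KO, and 9.99 and 20.4 FPKM in WT. Its Evx1as KO and WT values overlapped, and the log2 fold change was -1.02 ± 0.38 (adjusted p = 0.0818 by limma). Col1a2, the other chain of the trimer, had 1.03, 0.743 and 2.75 FPKM in Evx1as KO, 0.928, 1.21 and 1.25 FPKM in EVX1 KO, and 1.96 and 2.09 FPKM in WT, also with overlap (-0.35, adjusted p = 0.404 by limma). Without Evx1as KO replicate 1 Col1a1 was called lower (-1.50, adjusted p = 0.0344), and without replicate 3 Col1a2 was (-0.69, adjusted p = 0.0440). Col2a1, the cartilage collagen, had 21.4, 12.1 and 14.2 FPKM in Evx1as KO, 7.76, 10.6 and 19.3 FPKM in EVX1 KO, and 12.1 and 17.4 FPKM in WT, with overlap in all comparisons and no call.

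Members outside these groups were low. Col12a1, a collagen on the surface of fibrils, had 0.170, 0.371 and 0.231 FPKM in Evx1as KO, 0.390, 0.798 and 0.497 FPKM in EVX1 KO, and 1.98 and 1.99 FPKM in WT. Both knockouts were well below WT. Its log2 fold change in Evx1as KO against WT was -1.25 ± 0.18 (adjusted p = 0.00285 by limma). It entered the test through the WT libraries alone. The members that rose in Evx1as KO were Col6a2, a chain of the beaded filaments of type VI collagen, Col9a2, a chain of the cartilage collagen that coats type II fibrils, and Itga9, which with Itgb1 binds tenascin. Col6a2 had 1.78, 2.72 and 2.17 FPKM in Evx1as KO, 1.37, 1.25 and 1.43 FPKM in EVX1 KO, and 0.658 and 0.955 FPKM in WT (log2 fold change 0.83, adjusted p = 0.010 by limma). Col9a2 had 2.69, 2.16 and 2.90 FPKM in Evx1as KO, 1.15, 1.07 and 0.725 FPKM in EVX1 KO, and 1.31 and 0.809 FPKM in WT (0.80, adjusted p = 0.0147 by limma). Itga9 had 2.38, 2.22 and 1.79 FPKM in Evx1as KO, 2.03, 2.04 and 1.85 FPKM in EVX1 KO, and 1.25 and 0.963 FPKM in WT (0.57, adjusted p = 0.0255 by limma). Evx1as KO was above WT without overlap for all 3, and Col6a2 entered the test through the knockout libraries alone. The Col6a2 call was lost without WT replicate 1 (adjusted p 0.0722), that of Col9a2 without Evx1as KO replicate 3 or WT replicate 2 (highest adjusted p 0.107), and that of Itga9 without Evx1as KO replicate 1 or 2 or either WT library and with only Evx1as KO and WT fitted (highest adjusted p 0.143). Col6a1, the partner chain of Col6a2, had 1.03 to 1.29 FPKM in Evx1as KO, 0.751 to 1.21 FPKM in EVX1 KO, and 0.991 and 0.836 FPKM in WT, and was not called.

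No chain of the collagen-binding integrins reached 1 FPKM in any library: Itga1, Itga2, Itga10 and Itga11 stayed below it in all groups, beside ligands such as Col4a1 at 25.2 to 111 FPKM. The leukocyte chains Itgae, Itgal, Itgam, Itgax and Itgb2 were below 1 FPKM as well. Of the 19 calls in Evx1as KO against WT, 8 held in every alternative in which the gene was tested, among them Fn1, Sparc, Itga5, Itgav, Lamb3 and Col5a1. The 8 include Col12a1, which was tested only because its WT libraries were high, so nothing is read from its call. With no filter Col13a1, Col15a1, Col4a3 and Itga7, all below 1 FPKM, were called as well.

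Other genes that process, fill or anchor this matrix were taken from 5 lists of 24, 12, 8, 20 and 16 genes. Their counts in Evx1as KO against WT stand beside the 11.4% of all genes called lower and the 13.0% called higher. Of 20 tested genes for collagen folding, trimming and cross-linking 11 fell and 0 rose, with a median log2 fold change of -0.45 against 0.02 over all genes. They included Bmp1, which cuts the C-propeptide of fibrillar collagens, with 17.4, 18.9 and 13.8 FPKM in Evx1as KO, 35.4, 39.5 and 35.8 FPKM in EVX1 KO, and 56.1 and 41.5 FPKM in WT (-1.49, adjusted p = 0.00102 by limma). Loxl4, which cross-links collagen, fell by 1.36 on the log2 scale, and the collagen chaperone Serpinh1 had a log2 fold change of -0.70. The 11 include Lox, another cross-linking enzyme, which reached 1 FPKM in the WT libraries alone and was tested only through them. Bmp1 lies on chromosome 14, whose median was low in Evx1as KO replicates 2 and 3 but not in replicate 1, and it was low in all 3. Of 12 matrix proteases and inhibitors 5 fell and 1 rose: Plau (-1.28) and Mmp14 (-1.07), both on chromosome 14, and the inhibitors Timp3 (-1.04), Timp2 (-0.81) and Timp1 (-0.73) fell, and the gelatinase Mmp2 rose (1.09, on chromosome 8). Mmp14 had 50.6, 31.3 and 28.8 FPKM in Evx1as KO, lower in replicates 2 and 3 as the chromosome 14 median was, and 76.1 and 76.4 FPKM in WT. Of 7 other basement membrane genes 1 fell, a share near that of all genes: Nid1, which links laminin to type IV collagen (-0.68, adjusted p = 0.0159 by limma). Hspg2, Agrn and Nid2 were not called. Of 14 other glycoproteins and proteoglycans 6 fell and 0 rose, among them Gpc3 (-1.53), Fbln2 (-1.03), Tnc (-0.97), a ligand of Itga9, and Vcan (-0.97). Tnc averaged 0.144 FPKM in Evx1as KO, 0.876 FPKM in EVX1 KO and 1.24 FPKM in WT. It entered the test only through libraries other than Evx1as KO. Of 15 genes that couple integrins to actin 9 fell and 0 rose, among them Actn1 (-0.86), Zyx (-0.79), Parva (-0.57) and Fermt2 (-0.55, on chromosome 14). Fermt2 had 46.3, 34.5 and 30.3 FPKM in Evx1as KO, again lower in replicates 2 and 3, and 48.5 and 59.9 FPKM in WT. The part of chromosome 14 in these values was not tested.

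Markers of cell types that make much of this matrix also differed. Marker counts in Evx1as KO against WT stand beside the 11.4% of all genes called lower and the 13.0% called higher. Summed FPKM of 12 endoderm markers was 9.65 to 15.7 in Evx1as KO, 46.1 to 74.3 in EVX1 KO, and 38.9 and 28.3 in WT; 2 of the 6 tested, Gata4 and Gata6, were lower in Evx1as KO than in WT, while Sox7, Thbd, Afp, Amn, Ttr and Apoa1 stayed below 1 FPKM in every library. For 11 fibroblast markers it was 389 to 538 in Evx1as KO, 352 to 578 in EVX1 KO, and 867 and 787 in WT; 3 of the 7 tested, Acta2, Pdgfra and Tagln, were lower, and Lum, Postn and Fap were below 1 FPKM. The 6 endothelial markers summed to 0.856 to 1.66 FPKM in Evx1as KO, 4.97 to 11.1 FPKM in EVX1 KO, and 11.4 and 5.64 FPKM in WT. Of these only Kdr was tested and was lower in Evx1as KO than in WT, and Emcn was at 0 in every library. The sum of the list was below 1 FPKM in Evx1as KO replicates 1 and 3. Kdr thus entered the test with the help of libraries in which it was higher, so nothing is read from its call. The 5 blood markers were all below 1 FPKM, with Hbb-bh1 at 0. The 6 pluripotency markers, the check of the labelled cell type, summed to 736 to 826 FPKM in Evx1as KO, 637 to 646 FPKM in EVX1 KO, and 492 and 556 FPKM in WT. All 6 were tested, and 4 of them, Pou5f1, Nanog, Sox2 and Lin28a, were higher in Evx1as KO than in WT. The other 2, Sall4 and Zfp42, were not called, and 1 of these had a negative log2 fold change. The part of these cell types in the matrix results was not tested.

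In EVX1 KO against WT the matrix genes were mostly not called. The median log2 fold change was -0.09 over the 39 members and 0.02 over all genes. Col23a1, a transmembrane collagen, had 2.59, 2.94 and 2.19 FPKM in EVX1 KO, 0.356, 0.284 and 0.194 FPKM in Evx1as KO, and 0.993 and 0.459 FPKM in WT, and rose in EVX1 KO against WT (1.06 ± 0.19, adjusted p = 0.0403 by limma). EVX1 KO stood above all other libraries, and the gene entered the test through them alone. Col12a1, given above, fell (-0.94 ± 0.18, adjusted p = 0.0497 by limma). Both calls were lost in 12 of the 15 alternatives in which they were tested, among them those without any one library other than EVX1 KO replicate 3, and with EVX1 KO replicates 2 and 3 left out the adjusted p were 0.0900 and 0.0659. Fn1 (-0.03), Sparc (-0.19), Itga5 (-0.11) and Lamb3 (0.19) were not called, with adjusted p of 0.955, 0.193, 0.462 and 0.554 (limma). Col4a1, Col4a2 and Itga3 had larger values that did not pass: -0.84, -0.94 and -0.74, with adjusted p of 0.116, 0.114 and 0.0622 (limma). With the chromosome 8 median subtracted Col4a1 and Col4a2 had -0.58 and -0.68 (adjusted p = 0.190 and 0.181). Of the other lists, Npnt, the ligand nephronectin of Itga8, fell (-1.06, adjusted p = 0.0388 by limma) and the protease Adamts9 rose (1.27, adjusted p = 0.0366 by limma), and no other of their genes was called. These 2 calls were not followed through the alternatives. Of the 12 proteases and inhibitors 10 had a negative log2 fold change and 2 a positive one (median -0.43). Plau, Timp3, Timp2 and Timp1 had -0.80, -0.69, -0.47 and -0.42, and Mmp14 had 0.08. Of the 15 actin-coupling genes 12 were negative and 3 positive (median -0.17).

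Of the tested members on chromosome 8, Itgb1 was low in the EVX1 KO libraries in which the chromosome was low. Col4a1 and Col4a2 deviated from their means by -0.29 and -0.28 in EVX1 KO replicate 1, and by 0.11 and 0.04 in replicate 2. These means include the low Evx1as KO libraries, and in both replicates both genes were below both WT libraries. Itgb1 had a log2 fold change of -0.43 in EVX1 KO against WT (adjusted p = 0.266 by limma) and of -0.17 with the chromosome median subtracted (adjusted p = 0.412). Its low libraries, replicates 1 and 2, were those in which the chromosome 8 median was -0.38 and -0.30. With EVX1 KO replicates 2 and 3 left out, so that replicate 1 stood alone and was assumed to vary like the other groups, Itgb1 (-0.80, adjusted p = 0.0430 by limma) and Itga3 (-1.09, adjusted p = 0.0412 by limma) were called lower, and Col12a1 and Col23a1 were not. Without replicate 3 Itgb1, Itga3 and Col12a1 were called lower. The part of the chromosome in these values was not tested.

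**Figure D5:**
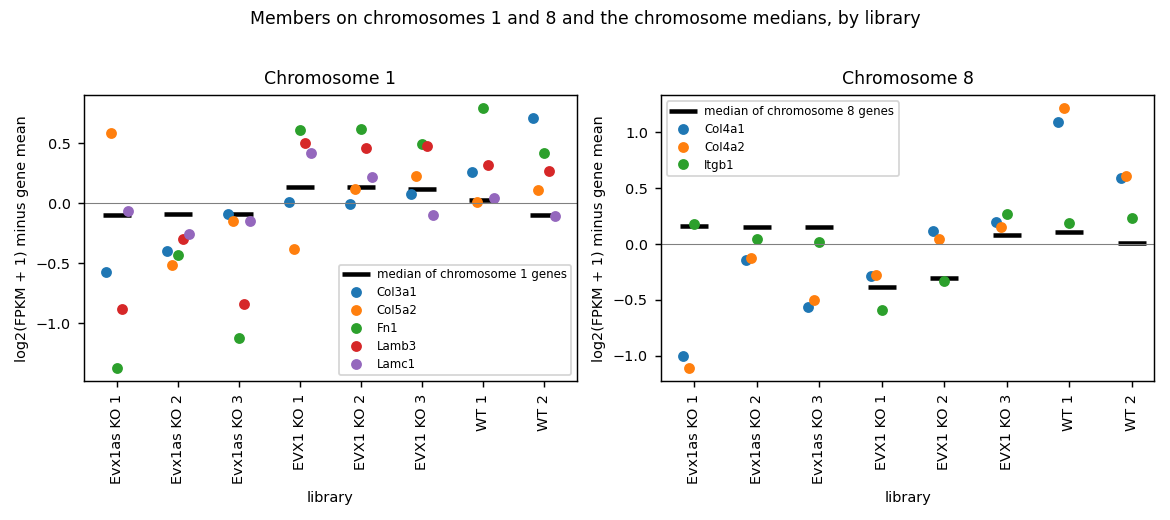
Deviation of log2(FPKM + 1) from the gene's mean (vertical axes) in each library for the tested members on chromosome 1 (left) and chromosome 8 (right), with the median over all genes of the chromosome (black bars). Itgb1 lies below 0 in EVX1 KO replicates 1 and 2, where the chromosome 8 median is -0.38 and -0.30, and Fn1 and Lamb3 lie below the chromosome 1 median in all 3 Evx1as KO libraries.

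In EVX1 KO against Evx1as KO 12 members rose, where 10.7% of all genes were called higher, and 1 fell, where 11.3% were called lower. The median log2 fold change was 0.30 over the members and -0.002 over all genes. This comparison shares the Evx1as KO libraries with the first one, and its values stand beside that comparison's. Fn1 had a log2 fold change of 1.55 ± 0.21 (adjusted p = 0.00189 by limma) in EVX1 KO against Evx1as KO, and of 1.32 with the chromosome 1 median subtracted. Lamb3 had 1.15, and 0.93 after that subtraction. For Itga5, Sparc and Itgav the log2 fold change was 0.81, 0.56 and 0.44. Col23a1 (1.48), Col5a1 (1.25), Col1a1 (1.11) and Col27a1 (0.77) rose too, as did Lama5 (0.41) and Lamb1 (0.30), and Col9a2 fell (-0.85). Of these, Col23a1 and Col27a1 stayed below 1 FPKM in Evx1as KO and entered the test through other libraries. For each of the 13 no EVX1 KO library overlapped an Evx1as KO library. The 13 were picked by their calls in these same libraries, so this is no separate support. The share of all genes without such overlap was not counted.

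Of these 13 calls, 7 held in every alternative in which the gene was tested, among them Fn1, Sparc, Itga5, Lamb3 and Col5a1. The 7 include Col23a1, which was tested only because its EVX1 KO libraries were high, so nothing is read from its call. With EVX1 KO replicates 2 and 3 left out Col1a1, Col27a1, Col9a2 and Itgav were lost, at adjusted p of 0.311, 0.123, 0.107 and 0.0613 (limma). In the same fit Lamc1 was called higher (0.57, adjusted p = 0.0362 by limma) and Itgb1 lower (-0.67, adjusted p = 0.0182 by limma), and Col4a1 and Col4a2 had 0.28 and 0.30. Col1a1 was also lost without Evx1as KO replicate 2 or 3 or any EVX1 KO library, with no filter and with the replicate block (adjusted p 0.0836), and Itgav without Evx1as KO replicate 3 (highest adjusted p 0.0704). The call of Lama5 was lost without any one Evx1as KO library or EVX1 KO replicate 1 or 2 and with no filter (highest adjusted p 0.110), and that of Lamb1 without any one library other than EVX1 KO replicate 3, with no filter, with only the groups compared (highest adjusted p 0.117), with the replicate block (adjusted p 0.0705) and with chromosome medians subtracted (adjusted p = 0.0726). Lamc1 had 0.33 as measured (adjusted p = 0.0924 by limma) and 0.11 after that subtraction. Itga8 and Col4a1 were called higher without Evx1as KO replicate 2, and Lamc1 was called higher and Itgb1 and Itgb5 lower without EVX1 KO replicate 3. Col4a1 (0.58, adjusted p = 0.0983 by limma) and Col4a2 (0.55, adjusted p = 0.145 by limma) were not called as measured, but were with the chromosome 8 median subtracted (0.93 and 0.90, adjusted p = 0.0142 and 0.0257). Itgb1 had a log2 fold change of -0.30 as measured and of 0.05 after that subtraction, and was called in neither (adjusted p = 0.270 and 0.737), while it was called lower with EVX1 KO replicates 2 and 3 left out, as given above. The counts of the other lists stand beside the 10.7% of all genes called higher and the 11.3% called lower. Of 20 tested collagen processing genes 9 rose and 2 fell, and of 12 proteases and inhibitors 2 rose and 3 fell. Of 7 other basement membrane genes 1 rose (Nid1) and 1 fell (Npnt). Of 14 other glycoproteins 4 rose and 1 fell, and of 15 actin-coupling genes 3 rose and 0 fell. Leprel2, among the 2 collagen processing genes that fell, stayed below 1 FPKM in EVX1 KO and entered the test through other libraries. Tnc, among the 4 glycoproteins that rose, entered it only through libraries other than Evx1as KO.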

How the data were processed

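RNA of the 8 libraries was made into TruSeq Stranded mRNA libraries, per the labels. The authors deposited 1 table of FPKM for all 8 libraries, which was used as deposited; CASAVA, TopHat2 2.0.11, mm9 and mm10 are named, with no role, per the submitters' processing notes, and none of the sources used here names the FPKM program, the annotation or the strand setting. Of the 81 members 24 overlapped their GRCm38 positions, so the table's coordinates, which are not GRCm38, were not used. Symbols on several lines had the same values and were used once. Without read counts in the table, sequencing depth and counting intervals cannot be given.

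Groups came from the sample titles. The 13188 genes that reached 1 FPKM in 2 or more libraries entered 1 linear model of log2(FPKM + 1), a pseudocount of 1, with a mean per group over all 8 libraries (limma 3.58.1, R 4.3.3, empirical Bayes with trend), tested on simulated data. Exact permutation tests were used for 6 ratios. Named genes were, by rule, 14 main ligands and receptors, the top 5 collagens, laminins and integrins, the 10 called members with the largest fold change per comparison, other called members and up to 4 called genes of each other list; Col1a2, Col5a2, Col6a1, Lama3 and other low members were named as partners after their values were seen. Members, lists and alternatives were chosen with earlier results of these data known. Tables and figures used Python 3.11.15, pandas 2.3.3, scipy 1.17.1 and matplotlib 3.10.9. The counts cover all members, of which 1 is not reported here by name.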

Additional observations from a re-analysis of the deposited data

How the results depend on the processing

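Alternatives were a pseudocount of 0.1 FPKM, no filter, a filter of 5 FPKM, median-ratio scaling, the replicate number as a block, fits of only the groups compared, chromosome medians subtracted, EVX1 KO replicates 2 and 3 left out, and each library left out in turn. No value of a member that was called changed sign. The member counts below stand beside all-gene counts that also moved. In Evx1as KO against WT these were 1289 higher and 1200 lower of 23869 genes with no filter. They were 1352 and 1288 of 8981 with the 5 FPKM filter, and 941 and 863 of 13188 without Evx1as KO replicate 3. In EVX1 KO against Evx1as KO they were 1033 and 1084 with no filter, and 1175 and 1184 with the 5 FPKM filter. In Evx1as KO against WT, members called higher (3) were 0 with the 5 FPKM filter and 1 to 4 with a library left out, and members called lower (16) were 10 to 17 with a library left out, with 10 without either WT library, and 18 with no filter. In EVX1 KO against WT both counts (1 and 1) were 0 with the pseudocount of 0.1, no filter, the 5 FPKM filter, the replicate block and only the groups compared; with EVX1 KO replicates 2 and 3 left out they were 0 higher and 2 lower, and with a library left out 0 to 1 higher and 0 to 3 lower. In EVX1 KO against Evx1as KO members called higher (12) were 8 to 13 over all alternatives; members called lower (1) were 0 with the 5 FPKM filter and 1 to 3 with a library left out. Col6a2, Col9a2, Itga9, Col12a1 and Col23a1 do not pass the 5 FPKM filter, so were not tested there. The cause of the other changes was not tested. Calls in the 5 other lists and in the marker lists were not followed through these alternatives.

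Deviations of libraries of the same number had correlations of -0.099 to 0.076, and those of different numbers -0.159 to 0.161. With 2 or 3 libraries per group these values cannot settle whether the numbers pair the samples, and the labels do not say. With the replicate block members called were 3 higher and 16 lower in Evx1as KO against WT, where 1385 and 1190 of all 13188 genes were. In EVX1 KO against Evx1as KO they were 10 higher and 1 lower, where 1252 and 1312 of all 13188 genes were. Over all genes, EVX1 KO against WT called 91 higher and 73 lower as reported, 14 and 14 with the block, 12 and 16 with no filter, 14 and 13 with only the groups compared, 2 and 2 without EVX1 KO replicate 2, and 279 and 355 without replicate 3. Evx1as KO against WT called 1721 higher and 1509 lower, and 801 and 620 without WT replicate 1. The 126 ratio values include the 18 as reported, which cannot move. Of the rest 3 moved by over 1 SD, all with EVX1 KO replicates 2 and 3 left out. Members under 1 FPKM rest on few fragments, and those that stayed below it in all libraries were tested only with no filter.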
